A study of Drosophila melanogaster with 4 samples.

Results

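Ribosomal protein genes of chromosome arms 2L and 3R were examined for regions enriched in H3K4me1, histone H3 carrying a single methyl group on lysine 4, in whole Drosophila melanogaster embryos. The members were all genes of these arms whose FlyBase symbol is RpL or RpS followed by a number and, at most, letters. There were 38 among 7734 genes of the arms, with 16 on 2L and 22 on 3R, and they comprised 17 genes of the small (40S) subunit and 21 of the large (60S) subunit. The embryos were of the wild-type strain Oregon-R, aged 14 to 16 h, and chromatin was immunoprecipitated with the antibody ab8895 in a batch named new lot 2. Replicate ChIP libraries numbered 2, each with an input library of unselected chromatin DNA, and the authors deposited a list of enriched regions for each replicate and for the pair combined. There was 1 condition, so no groups were compared and no test between conditions exists. Whether the replicates came from separate embryo collections is not stated, and their spread may be technical. In whole embryos, a mark in few cell types and a weak mark in all cells cannot be told apart.

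Ribosomal proteins assemble with ribosomal RNA into the subunits that translate mRNA, and every growing cell makes them in large amounts. In flies their genes are short, are dispersed over the genome, and are known for the Minute phenotype, in which loss of a gene copy slows development. Several encode snoRNAs, guides of rRNA modification, in their introns. H3K4me1 is known from enhancers and from the flanks of active promoters, and a broad region of it can span several short genes.

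The marking of these genes was near complete. A region overlapped the gene span plus 2 kb on each side in 36 of 38 members, or 94.7%, in each replicate and again in the combined list. Over all 7702 genes placed on the arms, the shares were 68.7% and 66.5% in the replicates and 71.7% combined. Among the 6039 protein-coding genes it held for 72.3%, 70.3% and 75%. No member had a region in one replicate and none in the other. The exceptions were RpL10Aa and RpL5, and the position of RpL5 is unsettled, as described further on. Without RpL5 the count was 36 of 37.

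By mean covered share, the contrast with all genes was larger for the gene span than for the wider window. For the window the mean was 76.8% in replicate 1 and 74.9% in replicate 2, against 41.5% and 39.7% of all genes. For the span it was 90.8% and 90.2%, against 42.0% and 40.1%. The whole span lay inside regions in 32 of 38 members in replicate 1 and in 33 in replicate 2. Of all genes, 24.1% and 22.9% were wholly covered, and of protein-coding genes 22.2% and 21.4%. Members were thus wholly covered more often in each list. The annotation at hand gives no strand, so the transcription start could be either end of a span. Both ends lay inside a region in 32 members in replicate 1 and in 33 in replicate 2, so these members had a covered start whichever strand they use. Both ends were covered in 30.3% and 28.6% of all genes and in 29.6% and 28.3% of protein-coding genes. In the combined list 33 members were wholly covered, against 27% of all genes and 24.6% of protein-coding genes. Both ends were covered there in 33 members, against 33.8% and 32.9%.

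Short genes are more easily covered whole, and members had a median span of 1282 bp against 2052 bp for protein-coding genes. Each member was therefore set beside every other protein-coding gene of its arm whose span was similar (the ratio of spans between 0.8 and its reciprocal), a median of 451 genes per member. The average of these comparison sets had a region within 2 kb in 66.3% of genes in replicate 1 and 64.2% in replicate 2, against 94.7% of members in each. For spans wholly covered, the averages were 36.7% and 35.7%, against 84.2% and 86.8% of members. The mean covered share of the window was 76.8% for members and 44.8% for length-matched genes in replicate 1, and 74.9% and 43.3% in replicate 2. In replicate 1, 35 of 38 members exceeded the median of their own length-matched genes, and in replicate 2 this held for 34.

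Neighbouring genes can bring regions into a short gene's window. Members had a mean of 2.34 other protein-coding genes within the window, close to the 2.24 of all protein-coding genes. When the comparison genes also had the same number of such neighbours, a region was present in 71.3% of them in replicate 1 and 69.5% in replicate 2, and 39.4% and 38.3% were wholly covered. Their mean covered share of the window was 48.6% and 47.2%. In replicate 1, 31 of 38 members exceeded the median of these comparison genes, and in replicate 2 this held for 29. The 88 other protein-coding genes within 2 kb of members had 70.6% of their span covered on average in replicate 1 and 71.2% in replicate 2. For the members these means were 90.8% and 90.2%. The neighbours were thus also well covered. They were longer, with a median span of 2062 bp, and were wholly covered in 44.3% and 46.6% of cases.

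**Figure D1:**
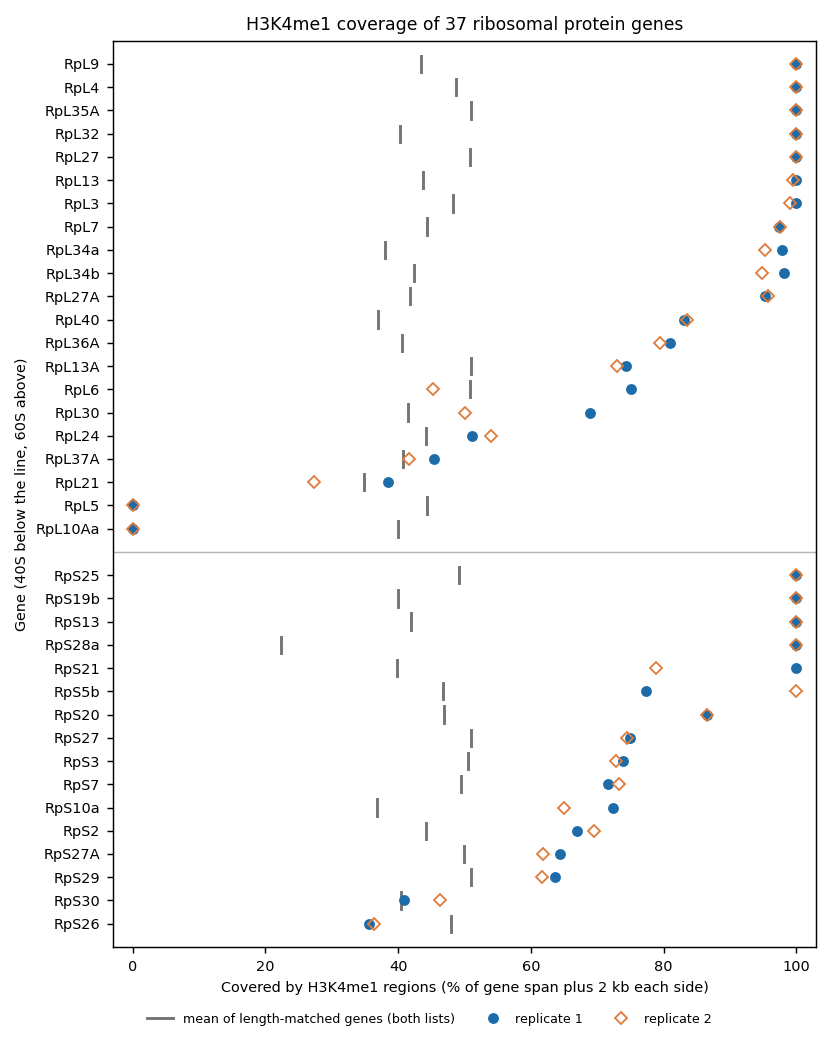
Covered share of the gene span plus 2 kb on each side for 37 of the 38 genes, in percent, with filled circles for replicate 1 and open diamonds for replicate 2. Grey bars give the mean of length-matched genes averaged over both lists. Most genes lie to the right of their grey bar, and RpL5 and RpL10Aa lie at 0 in both replicates.

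Coverage of the window differed widely between members and little between replicates. Its median over members was 81.4% ± 0.766 (SD, n = 2), against 41.3% ± 2.12 for protein-coding genes. The median absolute difference between replicates was 0.958 percentage points, and 5 members differed by more than 10 points, namely RpS21, RpL30, RpL21, RpS5b and RpL6. The window was wholly covered in both replicates in 8 members. These were RpL4, RpL9, RpL27, RpL32 and RpL35A of the large subunit and RpS13, RpS19b and RpS25 of the small subunit. Taken singly, the replicates had 11 and 10 of 38 members with a wholly covered window, against 685 and 620 of all 7702 genes. By subunit, the median covered share was 95.1% ± 0.310 for 60S members and 74.7% ± 0.356 for 40S members (SD, n = 2). The means did not show this order, at 76.5% and 73.1% in the replicates for 60S members and 77.3% and 77.0% for 40S members. The shares of wholly covered spans were also close, at 85.7% in each replicate for 60S members and 82.4% and 88.2% for 40S members. The ranges overlapped, since 40S members lay between 35.9% and 100% and 60S members between 0% and 100%, and all 17 40S members had a region, against 19 of 21 60S members.

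Among the large-subunit genes, RpL32 encodes the protein known as rp49 and its mRNA is a common reference in fly expression assays. Its window was covered to 100% in each replicate. The combined list had a region on 3R at 25863799 to 25875795 (release 5), 11997 bp wide and overlapping 8 protein-coding genes. Its score was 1.098 in replicate 1 and 1.306 in replicate 2, and 1.166 in the combined list. Scores were read here as log2 values with a constant per list that the authors do not state.

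RpL3 encodes a protein next to the peptidyl transferase centre, and it shared its region with RpS25, a small-subunit gene a few kilobases away. In the combined list this region ran on 3R from 7033801 to 7053998, was 20198 bp wide, overlapped 12 protein-coding genes and had a score of 1.07. Replicate 1 had a single region of 20071 bp there, and replicate 2 had 1 of 17434 bp followed by another of 2645 bp. Both RpL3 and RpS25 were wholly covered in each replicate. No other region was shared by members in any list.

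RpL4, whose protein lines the exit tunnel for the nascent chain, was covered to 100% of its window in each replicate, under a combined region on 3R at 23740267 to 23757765. Its score was 1.34 in both replicates. RpL35A lay under a region of 14680 bp with 8 protein-coding genes, RpL27 under 10135 bp with 6, and RpL9 under 7408 bp with 4. These windows too were wholly covered in each replicate.

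RpL6, a further 60S gene, had the highest score of all members, 1.501 in replicate 1 and 1.485 in replicate 2. That score belonged to a region beside the gene, which in the combined list lay on 3R at 27422255 to 27434936 over CycG, a cyclin gene. The region over the span of RpL6 itself was 2505 bp wide, on 3R at 27419667 to 27422171, and scored 0.92 and 1.09 in the replicates. The region over CycG reached into the window of RpL6 by 1632 bp in replicate 1 and by 24 bp in replicate 2, and the covered share of the window was 75.02% and 45.24%.

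In the small subunit, RpS3, a protein at the mRNA entry that also has DNA repair activity, had 73.8% of its window covered in replicate 1 and 72.9% in replicate 2. Its region in the combined list was 4480 bp wide, on 3R at 19182066 to 19186545, and scored 0.92 and 0.94 in the replicates. RpS13 and RpS25 had their windows wholly covered, with scores of 0.9555 and 1.0966 in replicate 1 and 1.0415 and 1.0447 in replicate 2.

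RpS21 was the member whose gene span differed most between replicates apart from RpS5b and RpL21. Its span was covered to 100% in replicate 1 and to 32.2% in replicate 2. The highest score was nearly the same, 1.34 and 1.36, in regions with nearly the same end and different starts, which were 12819 bp wide in replicate 1 and 9710 bp wide in replicate 2. In the combined list the whole span was inside a region on 2L at 2853498 to 2866494.

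RpS27A and RpL40, whose proteins are made as fusions to ubiquitin, were wholly covered in each replicate. Their windows were covered to 63.1% ± 1.80 and 83.3% ± 0.407 (SD, n = 2). A further 11 members, RpS2, RpS7, RpS20, RpS27, RpS29, RpL7, RpL13, RpL13A, RpL24, RpL27A and RpL36A, also had wholly covered spans in each replicate.

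**Figure D2:**
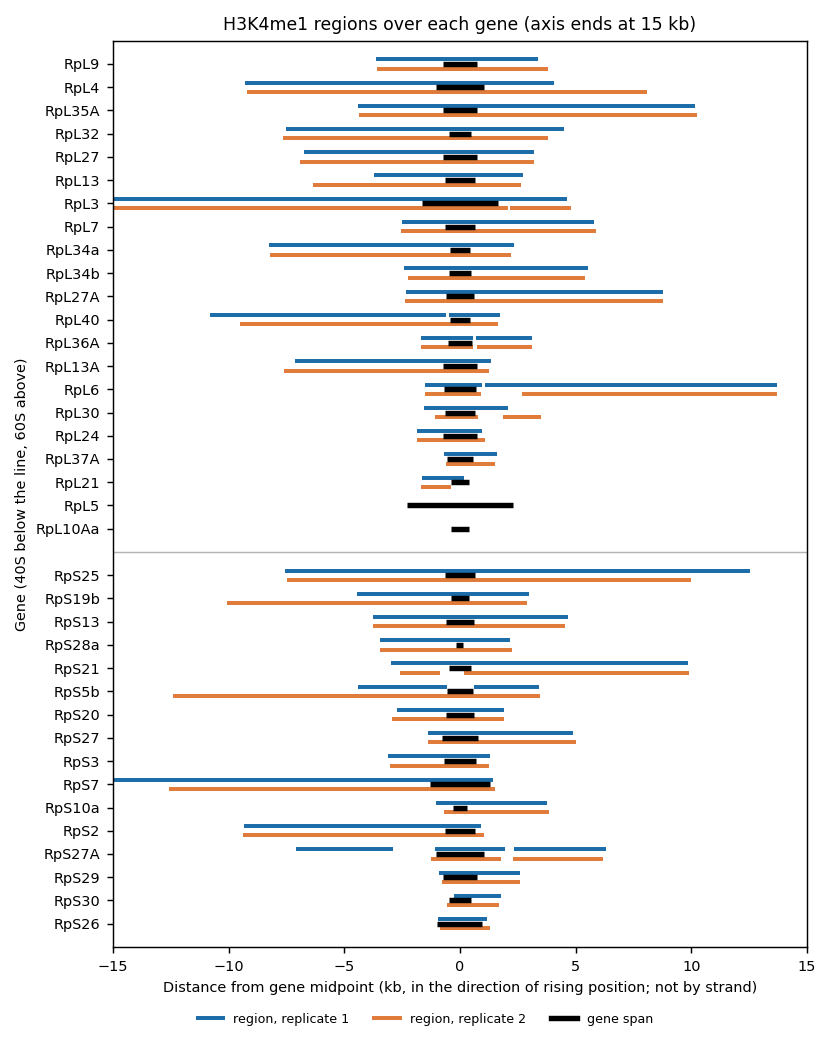
Extent of each H3K4me1 region (blue for replicate 1, orange for replicate 2) about the midpoint of 37 of the 38 ribosomal protein genes, with the gene span in black and distance in kb along the rising position of the arm, not by strand. Regions reach past the gene on both sides in most rows, usually much further on one side, and RpL5 and RpL10Aa have none.

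Regions over members were wide and reached past the gene unevenly. A single region held the whole span of 32 members in replicate 1 and of 33 in replicate 2. Beyond the span it reached a median of 1528 bp on the shorter side and 4093 bp on the longer side in replicate 1, and 1201 bp and 5201 bp in replicate 2. The highest-scoring region of each member had a median width of 7685 bp and 8335 bp in the replicates. The medians were 5562 bp and 5230 bp over protein-coding genes with a region, and 5874 bp and 5566 bp over length-matched genes. By subunit, the medians were 8461 bp and 8875 bp for 60S members, against 5876 bp and 5524.5 bp for their length-matched genes. For 40S members they were 5588 bp and 6365 bp, against 5872 bp and 5579 bp. The 40S members thus had no excess of width in replicate 1. Regions within 2 kb of member spans overlapped a median of 3 protein-coding genes in each list, and at most 12. In 5 of 42 such regions in replicate 1 and 6 of 42 in replicate 2 there was 1 protein-coding gene. That gene was the member itself at RpS26 in both replicates and at RpL40 in replicate 1. In the others it was a neighbour of the member.

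The excess over length-matched genes was highest over the gene, smaller from 2 kb outwards and still present at 5 kb. At the gene midpoint, 92.1% of members were in a region in replicate 1 and 89.5% in replicate 2, against 48.5% and 47.3% of the 3934 length-matched genes. These 3934 are the genes of any member's comparison set, each counted once. Unlike the averages per member above, they are not weighted to the members' lengths. At 250 bp outside a span, counting both sides, 81.6% of positions were covered in each replicate, against 46.5% and 45.2% of length-matched genes. At 1000 bp outside a span, this share was 71.1% in replicate 1 and 67.1% in replicate 2, against 44.7% and 43.2% of length-matched genes. At 2000 bp it was 56.6% in each replicate, against 43.7% and 41.9%. The excess was of similar size at 5000 bp, where 51.3% of positions were covered in each replicate against 37.7% and 35.9%. At 10000 bp the shares were 40.8% and 39.5%, against 37.7% and 35.5%.

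**Figure D3:**
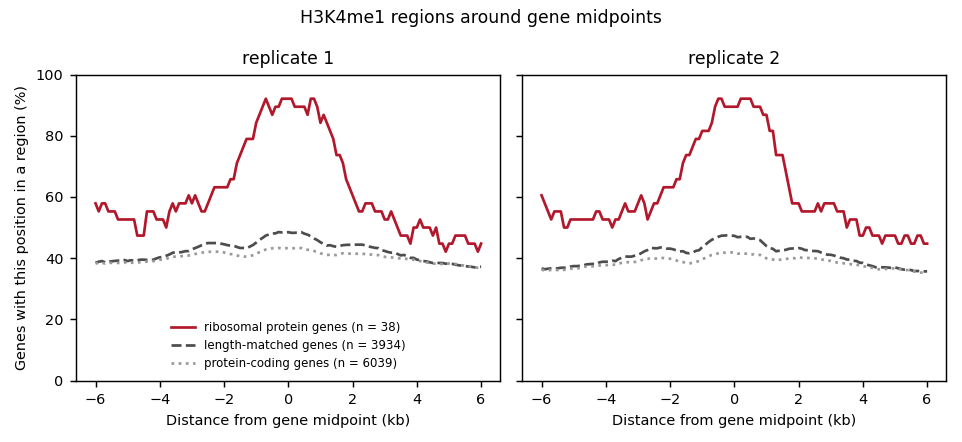
Percent of genes with a given position inside a region, by distance from the gene midpoint in kb, for the 38 ribosomal protein genes (red), 3934 length-matched genes (dashed) and 6039 protein-coding genes (dotted), with replicate 1 on the left and replicate 2 on the right. The length-matched genes are those of any member's comparison set, each counted once. The red line is high and nearly flat across the gene, at 92.1% and 89.5% at the midpoint against 48.5% and 47.3% for the dashed line, and comes nearer to the dashed line away from the gene.

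Although members were covered more often and more fully, their regions did not stand out by score. The median of the highest score per member was 1.07 in replicate 1 and 1.08 in replicate 2, and over protein-coding genes with a region it was 1.07 and 1.08. In replicate 1, 7 of the 36 members with a region were under the lower quartile of protein-coding genes and 9 were above the upper quartile. In replicate 2 these numbers were 7 and 10. Scores exceeded the median of the member's own length-matched genes in 19 of 36 members in replicate 1 and in 18 in replicate 2. For the region that covers most of the span itself, medians were 1.03 and 1.06 for members and 1.02 and 1.03 for protein-coding genes. The highest scores had a median absolute difference of 0.060 between replicates, and the largest difference was 0.25, at RpL3. In replicate 2 the highest score at RpL3 belonged to a region of 2645 bp beside the gene. The region over the span of RpL3 scored 1.0966 in replicate 1 and 1.0447 in replicate 2. The constant of each list is not stated, so differences between replicates may include a shift between lists.

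**Figure D4:**
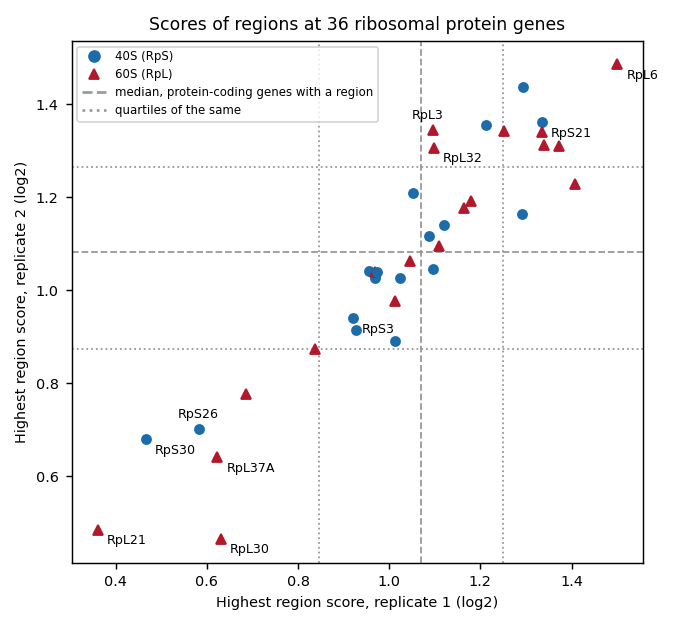
Highest region score within 2 kb of each of 36 ribosomal protein genes, in log2 units, with replicate 1 on the x axis and replicate 2 on the y axis, circles for 40S and triangles for 60S genes. Grey lines mark the median and quartiles over protein-coding genes with a region. Genes fall on both sides of the medians, with RpL21, RpL30 and RpS30 lowest by their mean and RpL6 highest.

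A tail of members carried low-scoring regions. The highest scores were 0.36 and 0.48 at RpL21, 0.47 and 0.68 at RpS30, and 0.63 and 0.47 at RpL30 in replicates 1 and 2. At RpL30 the region of replicate 1 was 3638 bp wide. Its highest score in replicate 2 belonged to a region of 1605 bp beside the gene. The region over the RpL30 span there was 1880 bp wide and scored 0.4165. RpS30 is made as a fusion to a ubiquitin-like protein. Its span was covered to 77.5% by a region of 2005 bp in replicate 1 and to 100% by a region of 2274 bp in replicate 2.

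RpS26, a protein near the mRNA exit, had 35.5% and 36.3% of its window covered, the lowest mean after RpL21 among members with a region. Its span of 1943 bp was covered to 98.8% by a region of 2112 bp in replicate 1 and to 94.6% by a region of 2158 bp in replicate 2, so the regions were close to the size of the gene. The combined list had a region there on 2L at 18441343 to 18443583 that overlapped no other protein-coding gene. RpL37A, with a span of 1099 bp, was wholly covered by regions of 2316 bp and 2122 bp in the replicates, each of which overlapped 2 protein-coding genes. Its window was covered to 45.4% and 41.6%. The covered windows of RpS26, RpL37A and RpS30 were near or below the means of their length-matched genes, which were 48.4%, 41.7% and 40.6% in replicate 1.

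RpL21 lies towards the centromere end of 2L. In replicate 1 a region covered 74.8% of its span, and in replicate 2 the nearest region ended 14 bp short of it. The region of the combined list, which lay on 2L between 22245762 and 22247670, scored 0.29. The placement of RpL21 between releases was not checked on its own. Of the 38 members, it was the one with a region in its window but none on its span in a replicate.

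Several members are copies of a duplicated ribosomal protein gene, and 6 of the 7 listed as such had a region in each replicate. The 7 are called second copies here, although both RpL34a and RpL34b are among them. RpL34a and RpL34b, both copies of which lie on 3R, had wholly covered spans, and 96.5% of each window was covered (SD 1.78 and 2.34, n = 2). The region of RpL34a in the combined list was 10651 bp wide with 9 protein-coding genes, and that of RpL34b was 8018 bp wide with 7. Scores averaged 1.30 at RpL34a and 1.00 at RpL34b, and RpL34a was higher in both replicates.

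RpS5b and RpS19b are known for high expression in the germline of flies. RpS19b was covered to 100% of its window in each replicate, with scores of 1.29 and 1.16, under a combined region of 13151 bp with 11 protein-coding genes. RpS5b was covered to 0.442% of its span in replicate 1, where a gap between a pair of regions fell on the gene, and to 100% in replicate 2. In the combined list RpS5b lay under a region of 15890 bp with 10 protein-coding genes.

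RpS10a was the single member nested inside another protein-coding gene, tau, which encodes a microtubule-associated protein. Its region of 4876 bp in the combined list, on 3R at 23477790 to 23482665, overlapped those 2 protein-coding genes. RpS28a, with a span of 304 bp the shortest member, lay under a region of 5750 bp that also overlapped Mgat2 and Axn. How much of these regions belongs to the nested or neighbouring gene was not tested.

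RpL10Aa, a copy of the gene for L10A of the large subunit, had no region within 2 kb in any list. The nearest region was 47597 bp away in replicate 1, 48619 bp in replicate 2 and 8497 bp in the combined list. It was also the single member with no other protein-coding gene in its window. Of 37 length-matched genes of 3R without such a neighbour, 27.0% had a region in replicate 1 and 24.3% in replicate 2, compared with 59.4% and 58.3% of all 360 length-matched genes. The part of this isolation in the absence of a region was not tested.

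RpL5, a protein that binds 5S ribosomal RNA, also had no region within 2 kb in any list, but its position is unsettled. It is the member nearest the centromere of 2L, and its release 5 position was taken as equal to its release 6 position. The 8 protein-coding genes from RpL5 to the end of the arm with spans under 30 kb were covered to 0% on average as placed, while the combined list had 10 regions on 2L past RpL5. Common shifts of these 8 genes were tried in steps of 500 bp. The highest mean coverage was 35.3%, at a shift of -111500 bp, which is the best of many tried. Whether the 0% as placed reflects the assumed position or an absence of the mark was not tested further, so the status of RpL5 is unsettled.

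Some members had a feature of gene structure that the choice by symbol did not use. A snoRNA gene lay inside the span of 11 of 38 members (28.9%), with 23 snoRNA genes in all and 7 of them in RpS7. Of all protein-coding genes on the arms, 0.646% held a snoRNA gene, and of the 3934 length-matched genes, each counted once, 0.203%. The span was wholly covered in each replicate in 10 of the 11 host members, the exception being RpL5. Among the 27 members without a snoRNA gene, 22 and 23 were wholly covered. The 28 other protein-coding hosts of snoRNA genes were longer, with a median span of 5842 bp, and 5 of them were wholly covered in each replicate, while 28 and 27 had a region within 2 kb.

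Other gene lists of the same arms were used to place the members, without matching by length. Median spans were 991 bp for mitochondrial ribosomal proteins and 2279 bp for translation factors. They were 1446.5 bp for the proteasome and 1472 bp for chemosensory receptors, against 1282 bp for members. Of 33 genes of mitochondrial ribosomal proteins, which serve the separate ribosomes of that organelle, all 33 had a region within 2 kb in each replicate and 31 were wholly covered. Translation factors had a region in 18 of 21 genes and a wholly covered span in 9. Proteasome genes had a region in 16 of 22 (72.7%) and a wholly covered span in 12. The share with a region was near the 72.3% and 70.3% of protein-coding genes in the replicates. Chemosensory receptor genes, which are known to be used by few sensory neurons, had a region in 18 of 73 in replicate 1 and 19 in replicate 2, and 2 and 1 were wholly covered.

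**Figure D5:**
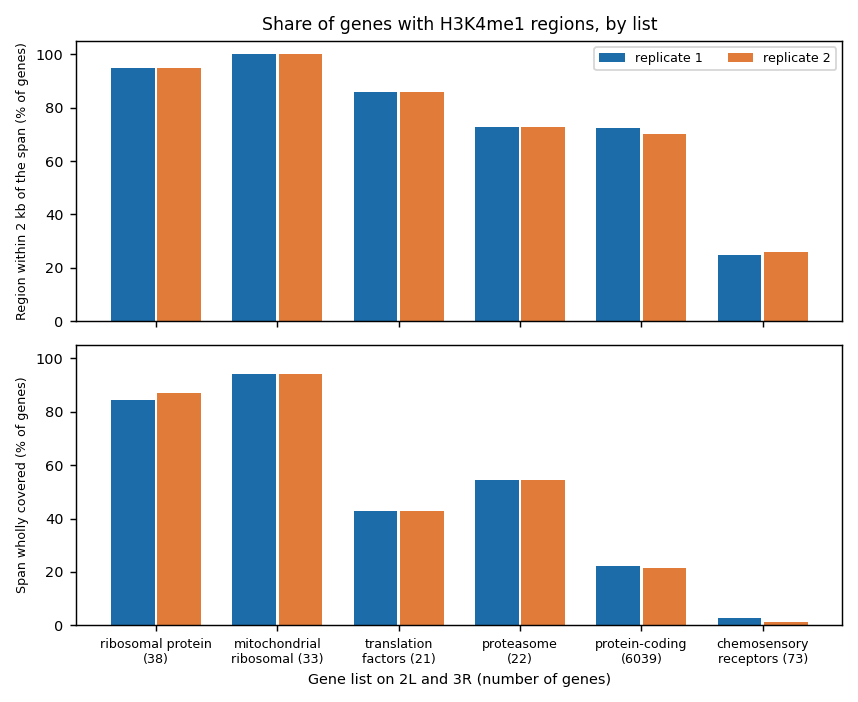
Percent of genes of each list on 2L and 3R with a region within 2 kb of the span (top) and with a wholly covered span (bottom), in replicate 1 (blue) and replicate 2 (orange), with the number of genes in parentheses. Ribosomal and mitochondrial ribosomal protein genes have the tallest bars in both panels and chemosensory receptor genes the lowest.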

How the data were processed

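Region lists were deposited for 2 ChIP libraries and for both combined. Per the file headers, positions are on FlyBase release 5, and the deposited first and last bases were used as given. The aligner Bowtie, version 0.12.7, is named in the submitters' processing notes. How regions were called, at what threshold, whether against the input and from how many reads, was not given in the sources used here. Depth is thus unknown. The score the authors deposited for each region was read as a log2 value with an unstated constant per list, since 2 to the power of the difference between scores of neighbouring short regions was a ratio of whole numbers (denominator up to 20000, relative tolerance 4e-13) for 286 of 398 pairs in replicate 1 and 340 of 398 in replicate 2, but for 0 and 0 with natural logarithms. In the combined list this held for 237 of 396 pairs, for 0 with natural logarithms and for 1 with base 10. Input libraries were not analysed here. The experiment number attached to the lists is the same for both replicates and differs between the libraries in the labels, so replicate names follow the repository's record.

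Gene spans came from the RefSeq table of release 6. Positions on 2L were taken as equal in both releases, and those on 3R were shifted by a constant. This left 32 of 7734 genes unplaced, none of them members. For protein-coding spans of 500 to 4000 bp, mean coverage in the combined list was 47.3% on 2L and 52.1% on 3R as placed, and lower at each of 12 other shifts tried. Where a synonym of a protein-coding gene held a position, of unstated release, it lay inside the placed span for 16 of 17 genes on 3R (7 of 7 members) and for 5 of 7 on 2L (1 of 1 member).

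Overlap of at least 1 bp counted. Coverage used Python 3.11.15 with numpy 2.4.6, checked on simulated lists. Length-matched averages use every eligible gene. Members, gene lists and comparisons were chosen with earlier results of these data known, and no tests were run. Named genes are the 5 with the highest (8 tied) and the 5 with the lowest covered share, those without a region or with a status that differed between replicates (0), the 3 highest and 3 lowest scores, 7 second copies and 3 reference genes, and others named for context after their values were seen. Values of 1 member that the rule names are not reported here, though it enters the counts. Planned promoter motifs were not run, since strand and sequence were not used here.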

Additional observations from a re-analysis of the deposited data

How the results depend on the processing

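The alternatives gave 45 values, of which 25 moved by less than the spread and 20 by more. The spread was 1.5 times for counts and 1 SD between replicates for other values. For the percent with a region this SD was 0, so any change there counted as more than the spread. Only the excess over length-matched genes could change direction, and 0 of its alternatives did so. The other values are counts, shares and scores, for which a change of direction was not possible. The count of members with a region, 36, ranged from 30 in the 50% of regions with the highest scores to 36. The count with both ends covered, a mean of 32.5, ranged from 28 in that subset to 35.5 when 1 end sufficed. The percent with a region, 94.7 in both replicates, was 93.8 on 2L, 95.5 on 3R, 96.8 without second copies, 97.3 without RpL5, 97.2 without RpL5 and RpL21, and 0 for RpL10Aa, the single member without a protein-coding neighbour. The median covered percent of the window, 81.4, lay at 80.9 to 81.9 when each replicate stood alone and was 87.7 in the combined list, 78.7 in the highest-scoring 50% of regions, 100 for the span alone, 74.5 on 2L, 88.5 on 3R, 0 for RpL10Aa, 79.8 without second copies, 82.6 without RpL5 and 83.7 without RpL5 and RpL21. The excess over length-matched genes, 29.5 percentage points, lay at 28.5 to 30.5 when each replicate stood alone and was 25.8 in the combined list, 24.4 with equal numbers of neighbours and 32.5 without RpL5. In the 50% of regions with the highest scores this excess was 28.8. The median score, 1.07 in log2 units, lay at 1.07 to 1.08 when each replicate stood alone and was 1.12 in the highest-scoring 50% and 1.06 in the combined list. Causes were not tested. Leaving out RpL5 or RpL21, matching by neighbours and counting 1 end were chosen after the data were seen. Coverage within 500 bases of the start was not run, because strand was not used here. No paired analysis was possible because the input libraries, which share the replicate numbers, were not analysed here. With 2 lists and no read depth, absence of a region need not mean absence of the mark.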
